A study of Saccharomyces cerevisiae with 3 samples.

Results

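The genes described here encode assembly factors of the 60S ribosomal subunit of budding yeast, Saccharomyces cerevisiae. They were taken as a list of 45 gene names and matched by symbol or alias to the annotation of the array's spots. Of these, 43 had a named spot, and NOP16 and REA1 had none here. The 43 stand among 5203 named genes on the array.

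Assembly factors are proteins that join the pre-ribosome while the ribosomal RNA is transcribed and folded in the nucleolus, and that leave before the subunit translates. The large subunit needs them to cut and fold its precursor RNA, to remove the internal spacers, to dock the 5S particle, and to export and finish the particle in the cytoplasm. In yeast these genes are known to be transcribed together with other ribosome assembly genes and to follow growth rate and nutrient signals.

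The study compared cells of strain S288C exposed to 5 mM 2-aminobenzimidazole for 2 h with cells grown for the same time without it. 2-Aminobenzimidazole is the parent amine of the benzimidazole carbamate fungicides. Both cultures grew in YPD, a rich glucose medium, at 25 °C, and the compound was added from a 500 mM stock to an exponentially growing culture. There were 3 two-colour arrays from independent biological samples, with treated polyadenylated RNA in Cy5 and control RNA in Cy3 on all 3, so a dye effect of a gene and the treatment cannot be told apart.

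Values are log2 ratios, read as treated over control. That direction is likely from the channel order in the labels but is not written in the table; if it were the opposite, every "lower" would become "higher". If the deposited values were natural logs, each would be larger by a factor of 1.44 on the log2 scale. Array 1 gave a value for 3062 named genes, array 2 for 5044 and array 3 for 5158. Without intensities, the distance of a spot from background is unknown, and the number of arrays limits the precision. The median of all named genes was -0.058, 0.034 and -0.044 on arrays 1, 2 and 3.

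Messenger RNAs of 17 of the 43 measured 60S assembly factors fell after exposure and 0 rose (limma over the 5043 named genes with at least 2 values, adjusted p below 0.05), where 5.83% of all genes fell and 5.39% rose. The median over the 43 genes of their mean log2 ratio was -1.17, a 2.25-fold lower level, while the median over those 5043 genes was -0.01. The median was below 0 in each of the 8 role groups used here, from -1.43 for the methyltransferases and their partner to -0.75 for the factors of Brx1, Ebp2 and 5S docking. The lowest mean was that of NOP7, at -2.68, and the highest that of RRP14, at 0.13. The mean was at or below -1 for 24 of the 43 genes (55.8%, against 9.16% of all genes), between -1 and 0 for 17, and above 0 for 2. Every value that a gene had was below 0 for 37 of the 43 genes, where 30.6% of all genes met this criterion. At least 2-fold lower on every array with a value were 17 of the 43, where 3.43% of all genes were. Above 0 on every array with a value were 0 of the 43, against 1470 of the 5043 genes.

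**Figure D1:**
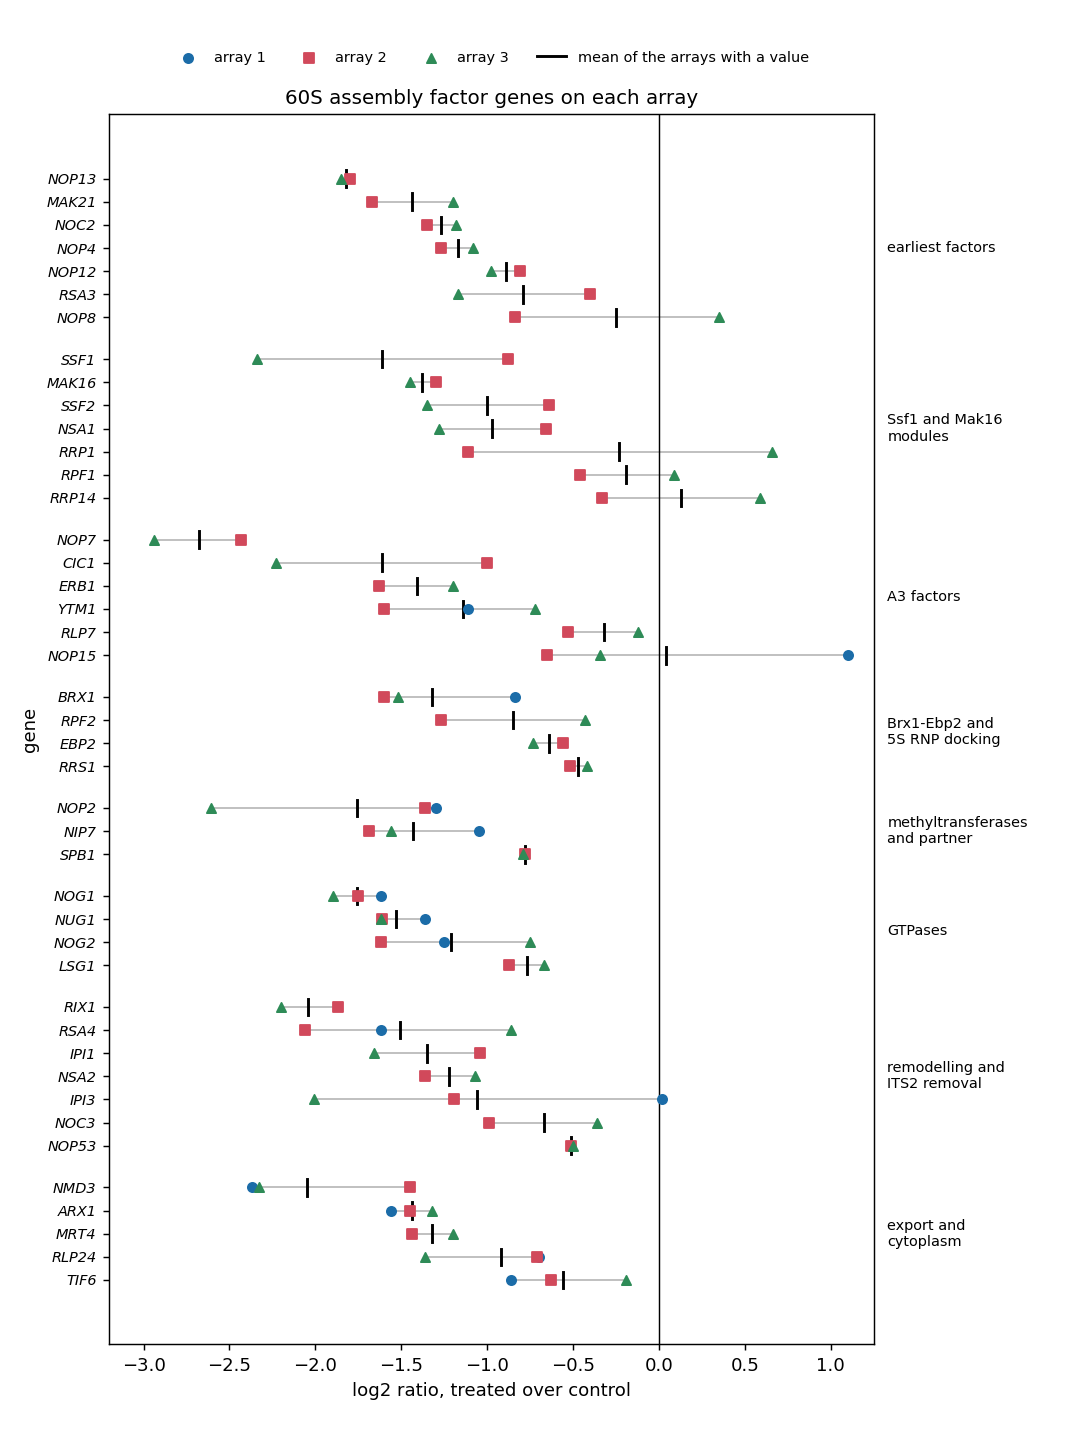
Log2 ratio (treated over control, horizontal axis) of each of the 43 measured 60S assembly factor genes on array 1 (circles), array 2 (squares) and array 3 (triangles), grouped by role; black ticks are means over the arrays with a value and grey lines span the values. Most points lie between 0 and -2.5, NOP7 lies lowest and RRP14, RPF1, RRP1, NOP8, NOP15 and IPI3 have a point above 0.

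Array 1, whose title carries a letter H that no label explains, measured a smaller share of these genes than of all named genes. It gave a value for 14 of the 43 (32.6%), against 58.9% of all named genes, while arrays 2 and 3 each gave a value for all 43. The 14 genes seen on all 3 arrays had a median of -1.51 over arrays 2 and 3, and the 29 genes without an array 1 value had -0.97. For all named genes the same medians were -0.02 and 0.03. Whether spot brightness set which genes had a value on array 1 was not tested, since no intensities were used.

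Calls were made with limma, a moderated linear model, as a two-sided test of each gene's log2 ratio against 0, with Benjamini-Hochberg adjustment over all genes in the fit and a threshold of 0.05. Of the 14 genes with 3 values, 10 were lower, against 9.64% of the 3039 genes tested, and 0 were higher, against 8.36% of those genes. At an unadjusted p below 0.05 the counts were 12 lower, against 19.8% of the 3039 genes, and 0 higher, against 16.3%. The 29 genes with 2 values were tested in a fit over the 5043 genes with at least 2 values. In that fit 7 of the 29 were lower, against 5.83% of genes tested, and 0 were higher, against 5.39%. At an unadjusted p below 0.05, 16 of the 29 were lower, against 15.6% of the 5043 genes, and 0 higher, against 13.6%. All 10 genes called with 3 values were also called in the fit over 5043 genes, so 17 of 43 were called there.

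These calls rest on arrays 1 and 3 being in the fit. Without array 1 or without array 3, 0 of the 3039 genes passed in limma, and the lowest adjusted p among the 14 factors was 0.168 and 0.117. At an unadjusted p below 0.05, 12 and 10 of the 14 were then lower, as were 347 and 411 of the 3039 genes, with 288 and 304 higher. Without array 2, 10 of the 14 were called. Without array 1, 0 of the 29 genes with 2 values passed either, although their own values on arrays 2 and 3 are the same in both fits. None of the 5021 genes in that fit passed. At an unadjusted p below 0.05 in limma, 16 of the 29 were lower there, as were 533 of the 5021 genes, with 471 higher.

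Of the 7 factors that join earliest, 2 were called lower, and none of the 7 had a value on array 1. NOP13, which encodes a nucleolar RNA-binding protein, stood at -1.80 on array 2 and -1.85 on array 3 and fell 3.54-fold (adjusted p = 0.0223, limma, at least 2 values). MAK21, whose product forms a complex with Noc2, stood at -1.67 and -1.20 on these arrays and fell 2.71-fold (adjusted p = 0.0452, limma, and 0.0535 with every spot tested on its own). That fit took 5605 spots with at least 2 values, with or without a gene name. Among the measured factors only NOC3 had more than 1 spot, so the means of the others were the same there. The remaining 5 of the 7 earliest genes did not pass.

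NOC2 itself was at -1.35 on array 2 and -1.18 on array 3 (adjusted p = 0.0577, limma). NOP4, encoding an RNA-binding protein needed for 25S rRNA production, was at -1.27 and -1.08 on these arrays. NOP12, which encodes a relative of Nop13, was at -0.81 and -0.98. Each of these 3 genes had similar values on both arrays. RSA3, encoding a subunit of an early complex with Npa1, was at -0.40 on array 2 and -1.17 on array 3, and NOP8, whose product binds Nip7, was at -0.84 and 0.35. NOP8 thus had opposite signs on the 2 arrays.

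Of the 7 genes of the Ssf1 and Mak16 modules, 4 were below 0 on both arrays with a value and 3 differed in sign between them. Their products sit together on the early nucleolar particle. MAK16, an essential nucleolar factor gene, was at -1.30 on array 2 and -1.45 on array 3, and fell 2.60-fold (adjusted p = 0.0466, limma, at least 2 values). It was the only one of the 7 to pass. With every spot tested on its own its mean was unchanged, but its call was lost (adjusted p = 0.054, limma). RPF1, encoding a Brix-domain protein, was at -0.46 and 0.09, RRP1 at -1.11 and 0.66, and RRP14 at -0.33 and 0.59. These 3 genes were below 0 on array 2 and above 0 on array 3. Of their products, Rpf1 and Rrp1 are known as partners of Mak16 and Nsa1 in 1 module. NSA1 was at -0.66 on array 2 and -1.28 on array 3 (adjusted p = 0.131, limma).

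SSF1 and SSF2 are paralogues that encode nearly interchangeable Brix-domain proteins. SSF1 was at -0.88 on array 2 and -2.34 on array 3 (adjusted p = 0.057, limma, at least 2 values), and SSF2 was at -0.64 and -1.35 (adjusted p = 0.127). Both were lower on array 3 than on array 2. The log2 ratio of SSF1 minus that of SSF2 was -0.23 on array 2 and -0.99 on array 3. A hybridisation probe may read both copies, so their values may not be independent. Whether a probe read both was not tested.

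The A3 factors, which act on the spacers beside the 5.8S rRNA, held both the lowest gene and one of the highest. NOP7 stood at -2.43 on array 2 and -2.94 on array 3, a mean of -2.68 ± 0.36 (SD, n = 2), and fell 6.43-fold (adjusted p = 0.0107, limma). Its mean ranked 1 from the lowest among all 5043 named genes with at least 2 values. That mean lacks array 1, and the lowest mean among the 3039 genes with 3 values was -2.66.

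Nop7 forms a trimer with Erb1 and Ytm1, which the ATPase Rea1 later pulls apart. ERB1 was at -1.63 on array 2 and -1.20 on array 3 and fell 2.67-fold (adjusted p = 0.0465, limma, at least 2 values, and 0.054 with every spot tested on its own). YTM1 was at -1.11, -1.60 and -0.72 on arrays 1, 2 and 3, a mean of -1.14 ± 0.44 (SD, n = 3), and fell 2.21-fold (adjusted p = 0.0372, limma). Its call was lost without array 2, with a mean of -0.91 and an adjusted p of 0.0639 in limma. All 3 genes of the trimer passed, and the log2 ratio of NOP7 minus that of ERB1 was -0.80 on array 2 and -1.74 on array 3.

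CIC1, whose product binds the internal spacer ITS2, was at -0.998 on array 2 and -2.23 on array 3 and fell 3.06-fold (adjusted p = 0.0487, limma, at least 2 values, and 0.0595 with every spot tested on its own). RLP7, encoding an Rpl7-like protein of the same site, was at -0.53 and -0.12. NOP15, another ITS2-binding factor gene, was at 1.10 on array 1, -0.65 on array 2 and -0.34 on array 3, with a mean of 0.04 ± 0.93 (SD, n = 3; adjusted p = 0.956, limma). NOP15 was the only one of the 14 genes with 3 values whose mean lay above 0, and array 1 alone was above 0.

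Among the factors that bind with Brx1 and Ebp2 or dock the 5S particle, 1 of 4 measured genes passed. BRX1, a Brix-domain protein gene, was at -0.84, -1.60 and -1.52 on arrays 1, 2 and 3, a mean of -1.32 ± 0.42 (SD, n = 3), and fell 2.50-fold (adjusted p = 0.025, limma). EBP2, the gene of its partner, was at -0.56 on array 2 and -0.73 on array 3. RPF2 was at -1.27 and -0.43 and RRS1 at -0.52 and -0.42; the Rpf2-Rrs1 pair brings the 5S RNA and its proteins to the particle. All 4 genes were below 0 on every array with a value, and none of them was 2-fold lower on all of its arrays.

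Of the RNA-modifying enzymes, NOP2 encodes a methyltransferase of 25S rRNA and NIP7 its partner. NOP2 was at -1.30, -1.36 and -2.61 on arrays 1, 2 and 3, a mean of -1.76 ± 0.74 (SD, n = 3), and fell 3.38-fold (adjusted p = 0.0204, limma). NIP7 was at -1.05, -1.69 and -1.56, a mean of -1.43 ± 0.34, and fell 2.69-fold (adjusted p = 0.0204, limma). Both genes were at least 2-fold lower on every array. SPB1, another methyltransferase gene, was at -0.78 on array 2 and -0.79 on array 3 (adjusted p = 0.181, limma, at least 2 values).

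Of the GTPase genes, NOG1 and NUG1 had some of the smallest spreads among the 14 genes with 3 values. NOG1, whose product spans much of the nucleolar particle, was at -1.62, -1.75 and -1.90 on arrays 1, 2 and 3, a mean of -1.76 ± 0.14 (SD, n = 3), and fell 3.38-fold (adjusted p = 0.013, limma). NUG1 was at -1.36, -1.61 and -1.62, a mean of -1.53 ± 0.15, and fell 2.89-fold (adjusted p = 0.016, limma). NOG1 lay below NUG1 on each array, with log2 differences of -0.26, -0.14 and -0.28.

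NOG2, encoding the GTPase that holds the site later taken by Nmd3, was at -1.25, -1.62 and -0.75, a mean of -1.21 ± 0.43 (SD, n = 3), and fell 2.31-fold (adjusted p = 0.0321, limma). LSG1, the gene of the cytoplasmic GTPase that releases Nmd3, was at -0.87 on array 2 and -0.67 on array 3 (adjusted p = 0.189, limma, at least 2 values). All 3 nuclear GTPase genes passed, and the cytoplasmic one did not; the difference between them was not tested.

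The remodelling factors prepare the particle for export. RIX1, encoding the core of the Rix1-Ipi1-Ipi3 complex, was at -1.87 on array 2 and -2.20 on array 3 and fell 4.10-fold (adjusted p = 0.0177, limma, at least 2 values). IPI1 was at -1.04 and -1.66 (adjusted p = 0.0558, limma). IPI3 was at 0.02, -1.19 and -2.01 on arrays 1, 2 and 3, a mean of -1.06 ± 1.02 (SD, n = 3; adjusted p = 0.109, limma). RIX1 was thus below both partners on arrays 2 and 3, and IPI3 had the widest spread among the 14 genes with 3 values.

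RSA4, the gene of the Rea1 substrate on the particle, was at -1.62, -2.06 and -0.86 on arrays 1, 2 and 3, a mean of -1.51 ± 0.61 (SD, n = 3), and fell 2.85-fold (adjusted p = 0.0234, limma). NSA2 was at -1.36 on array 2 and -1.07 on array 3, and NOC3, whose product is found with Noc2 on intermediate particles, was at -0.99 and -0.36. NOP53, which encodes the factor that recruits the exosome to trim ITS2, was at -0.51 and -0.50. In this group 2 of 7 measured genes passed, RIX1 and RSA4, and 6 of 7 were below 0 on all their arrays.

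Of the export and cytoplasmic factors, NMD3 had the lowest mean of the 14 genes with 3 values. Its product is the export adaptor of the large subunit. NMD3 was at -2.37, -1.45 and -2.33 on arrays 1, 2 and 3, a mean of -2.05 ± 0.52 (SD, n = 3), and fell 4.14-fold (adjusted p = 0.013, limma). ARX1, a second export factor gene, was at -1.56, -1.45 and -1.32, a mean of -1.44 ± 0.12, and fell 2.72-fold (adjusted p = 0.0174, limma). ARX1 had the smallest spread of the 14.

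The remaining genes of this group encode proteins that keep a site or an interface closed until late. MRT4, the gene of the placeholder for the stalk protein P0, was at -1.44 on array 2 and -1.20 on array 3 (adjusted p = 0.0516, limma, at least 2 values). RLP24, the gene of the placeholder for Rpl24, was at -0.70, -0.71 and -1.36 on arrays 1, 2 and 3 (adjusted p = 0.0626, limma; 0.0495 without array 2). TIF6, encoding the factor that blocks joining of the subunits, was at -0.86, -0.63 and -0.19 (adjusted p = 0.194, limma). All 5 genes of the group were below 0 on every array with a value.

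**Figure D2:**
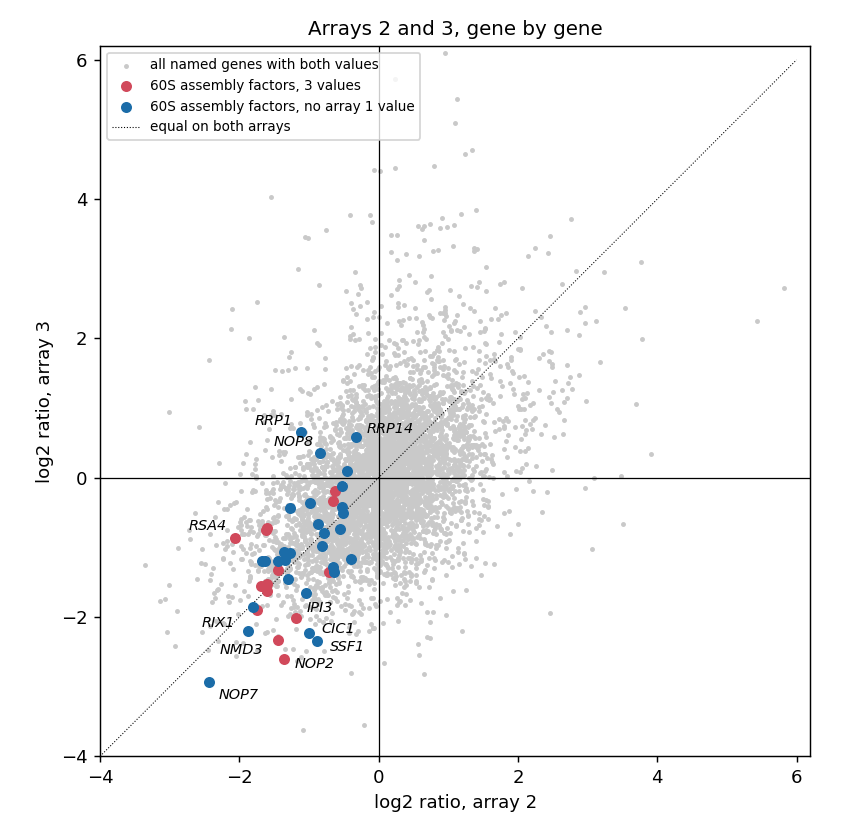
Log2 ratio of every named gene on array 2 (horizontal) against array 3 (vertical), with grey points for all named genes, red for 60S assembly factors with 3 values and blue for those without an array 1 value; the dotted line marks equal values. All 43 assembly factors lie left of 0 on array 2, and 4 of them (RRP1, RRP14, NOP8 and RPF1) lie above 0 on array 3.

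The factors repeated between arrays 2 and 3 about as well as genes in general did. On array 2 all 43 were below 0, from -2.43 to -0.33, and on array 3 39 were, with a range of -2.94 to 0.66. Of all named genes with at least 2 values, 2429 of 5022 were below 0 on array 2 and 2647 of 5042 on array 3. Across the 43 genes, which share the same 2 hybridisations and are not independent replicates, Pearson's r was 0.55 and Spearman's rho 0.55. Over the 5021 named genes with both values, each was 0.46. The values differed by at most 0.5 for 23 of the 43 (53.5%, against 45.2% of all genes) and by more than 1 for 6 (14%, against 25.3%). The median on array 1 was -1.18 over 14 genes, and on arrays 2 and 3 it was -1.19 and -1.18 over 43. For the same 14 genes the medians of arrays 2 and 3 were -1.52 and -1.44.

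Related gene lists are given here by the same counts, where 9.64% of the 3039 genes with 3 values were lower. Of 31 other 60S assembly factor genes, 6 of the 12 with 3 values were lower and 0 higher (limma; 0 also at an unadjusted p below 0.05), with a median over all 31 of -0.74. ARB1, the gene of an ABC-type ATPase, fell to -1.28 ± 0.37 (SD, n = 3; adjusted p = 0.026, limma) and SYO1, encoding the chaperone of Rpl5 and Rpl11, to -1.25 ± 0.10 (adjusted p = 0.0234, limma). In the same list JJJ1, encoding a J-domain protein that helps release Arx1, was at 0.05 on array 2 and 1.77 on array 3, and REI1, its partner gene, was at 0.40, -0.65 and 0.01 on arrays 1, 2 and 3. Neither passed, and they were named after their values were seen.

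Of the 12 RNA helicase genes of 60S assembly, 3 of the 5 with 3 values were lower (limma), with a median over the 12 of -1.35. HAS1 stood at -2.45, -1.95 and -2.38 and PRP43 at -1.96, -2.04 and -2.57. The means of both lay below the lowest mean of the 14 factors with 3 values, that of NMD3.

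Genes of 40S assembly had a median of -1.08 over 44 genes with at least 2 values, and 13 of the 21 with 3 values were lower and 0 higher (limma), led by NAN1 at -1.85 ± 0.42 (SD, n = 3; adjusted p = 0.0137, limma) and UTP21 at -1.72 ± 0.44 (adjusted p = 0.0159, limma). At least 2-fold lower on every array with a value were 40.9% of them, beside 39.5% of the 60S factors and 3.43% of all genes. The array medians were -0.76, -1.20 and -1.18. No test of the difference between the lists was made.

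Large-subunit ribosomal protein genes, whose products these factors assemble, had a median of -0.93 over 66 genes, and 16 of 66 were lower (limma), or 10 of 66 in the fit over 5043 genes, where 5.83% of all genes were. Their array medians were -0.43, -1.48 and -0.67. All 66 had 3 values, and 3.03% of them were at least 2-fold lower on every array, near the 3.75% of all genes with 3 values. Below 0 on every array were 60.6% of them, against 30.6% of all genes with 3 values. RPL7B was at -1.35, -2.38 and -1.30 on arrays 1, 2 and 3 (adjusted p = 0.0193, limma) and RPL11A at -0.87, -2.01 and -1.96 (adjusted p = 0.0213, limma). Most are present as paralogous copies, whose hybridisation signals cannot be separated with certainty.

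**Figure D3:**
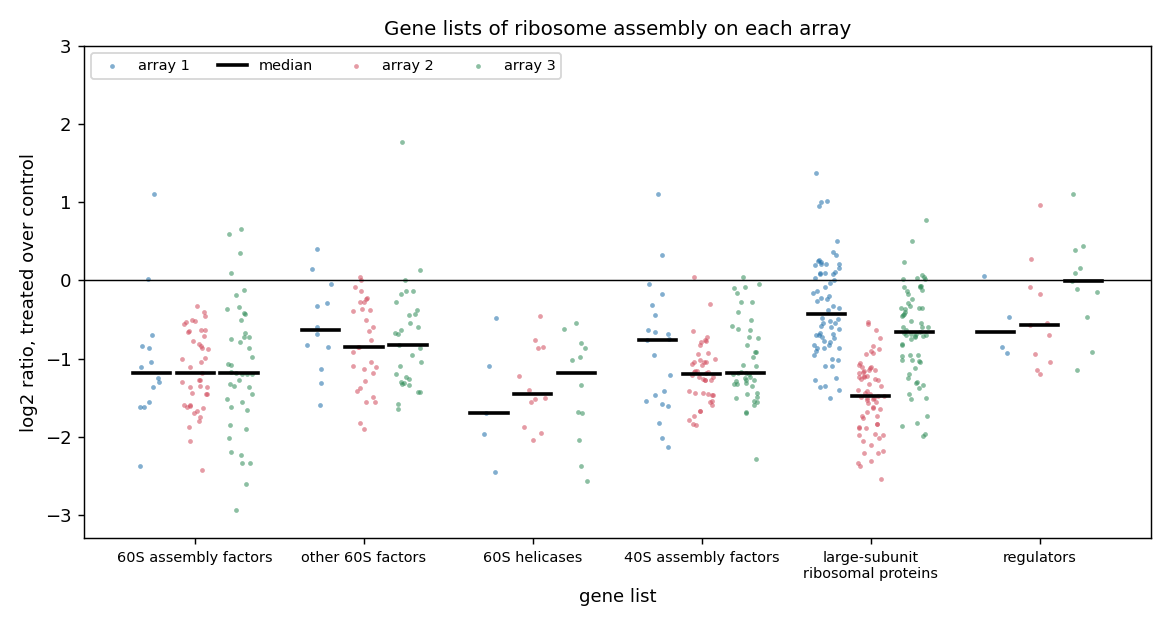
Log2 ratio (treated over control, vertical axis) of the genes with at least 2 values in 6 lists, by array, with 1 point per gene and black bars for the median of each list on each array. The 60S factors have medians of -1.18, -1.19 and -1.18, and the large-subunit ribosomal protein genes -0.43, -1.48 and -0.67.

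The regulators of these genes showed no call. Of 11 with values, 4 had all 3, and 0 were lower or higher in either limma fit; at an unadjusted p below 0.05 in the fit over 5043 genes, 2 were lower (TOD6 and ABF1), a share near the 15.6% of all genes, and 0 higher. TOD6, encoding a repressor of ribosome assembly genes, was at -1.14 on array 2 and -1.15 on array 3 (adjusted p = 0.0774, limma; unadjusted 0.0118), while its paralogue DOT6 was at 0.06, -0.08 and 0.39 on arrays 1, 2 and 3. SFP1, the gene of an activator of the same genes, was at 0.28 on array 2 and 1.10 on array 3, and STB3, encoding another repressor of them, was at -0.57 and -0.01. MAF1, the gene of the RNA polymerase III repressor, was at 0.96 and 0.44 on these arrays and IFH1, a ribosomal protein gene coactivator, at -0.18 and -0.15.

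SCH9, a kinase gene of the TORC1 pathway, was at -0.85, -1.20 and 0.16 on arrays 1, 2 and 3, and RAP1, a factor gene of ribosomal protein promoters, at -0.93, -0.94 and 0.10. Both were below 0 on arrays 1 and 2 and above it on array 3. FHL1, encoding a partner of Ifh1, was at -0.47, -0.54 and -0.47. ABF1, a general regulatory factor gene, was at -1.05 on array 2 and -0.92 on array 3 (unadjusted p = 0.0234, limma), and KOG1, the gene of a TORC1 subunit, at -0.70 and -0.11.

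The genes are spread over the genome, and their divergent neighbours were mostly nearer to 0. By the RefSeq table of assembly R64, the 45 genes lie on 12 chromosomes with 0 adjacent pairs among them, and 20 of them have a neighbour transcribed in the opposite direction from the shared upstream region. In 17 of these pairs both genes had values. The median of the means was -1.22 for the assembly factors, -0.39 for the neighbours and -0.01 over all 5043 genes with at least 2 values. REX3 beside REA1 brings the divergent neighbours with at least 2 values to 18. Of these, 10 were below 0 on every array with a value, against 30.6% of all genes. The factor was the lower gene in 15 of the 17 pairs. In 1 of these 15, RLP7 beside DOM34, both means were -0.32.

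In the widest pairs the 2 means had opposite signs, though not every gene of these pairs was called. UBC5, a ubiquitin-conjugating enzyme gene beside MAK21, stood at 2.66, 1.46 and 2.25 on arrays 1, 2 and 3, a mean of 2.12 ± 0.61 (SD, n = 3; adjusted p = 0.013, limma). GTF1, a mitochondrial amidotransferase subunit gene beside NOP7, was at 0.52 on array 2 and 0.97 on array 3 (adjusted p = 0.211, limma, at least 2 values). TEF4, a translation elongation factor gene beside RRP14, was at -2.57, -2.34 and -2.05 (adjusted p = 0.0085, limma). RRP14 had the highest mean of the 43, 0.13, and was not called (adjusted p = 0.858, limma, at least 2 values). Of the 8 neighbours with 3 values in these pairs, 2 were lower, TEF4 and MDM20, an acetyltransferase subunit gene (adjusted p = 0.0437 for MDM20, and 0.0503 in the fit over 5043 genes), and 1, UBC5, was higher (limma).

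**Figure D4:**
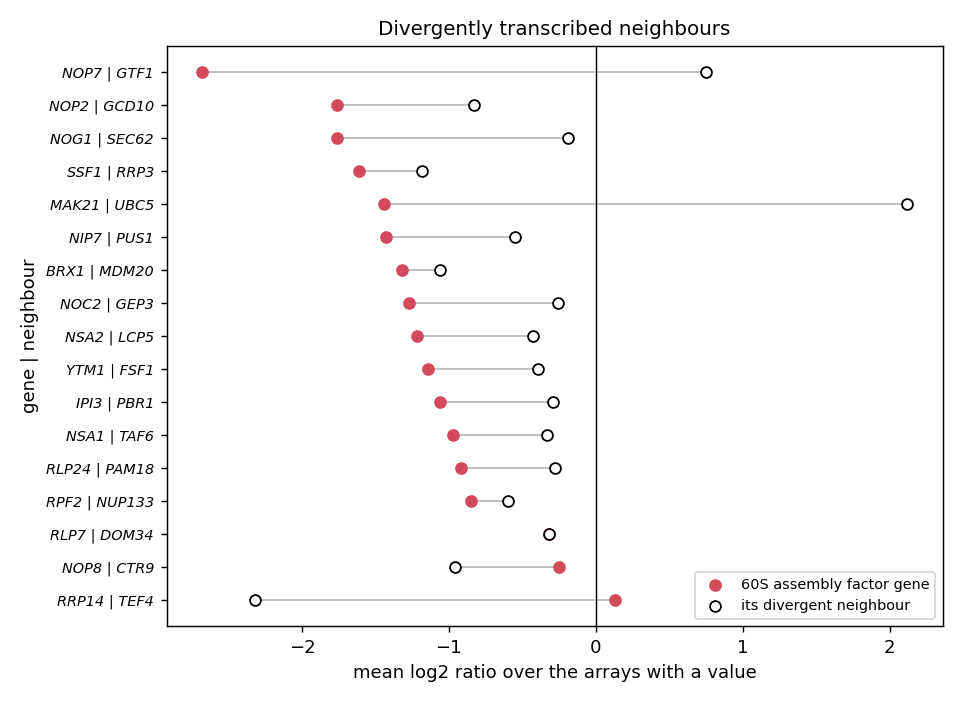
Mean log2 ratio over the arrays with a value (horizontal axis) for 17 assembly factor genes (filled) and their divergently transcribed neighbours (open), with 1 line per pair. The neighbour lies to the right of the factor in most pairs, furthest for MAK21 with UBC5 (-1.44 and 2.12) and NOP7 with GTF1 (-2.68 and 0.75), and to the left for RRP14 with TEF4 (0.13 and -2.32) and NOP8 with CTR9 (-0.25 and -0.96).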

How the data were processed

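The authors deposited 1 table with a log ratio per spot and array (6272 spots, 3 arrays), taken here as log2. Per the labels, LOWESS normalisation used the spots flagged 0; the sources used here give no background correction, scanner, log base or direction. The maximum of 6.89 would mean a ratio of 7.83e+06 in base 10 and 119 in base 2, and base 2 was used. Spots were named through the platform annotation and Entrez identifiers (RefSeq, assembly R64): 5308 had 1 symbol, 0 several and 964 none. Spots of a gene were averaged; NOC3 alone among the 60S factors had more than 1 spot.

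Deposited values were fitted with an intercept alone in limma (version 3.58.1, R 4.3.3) by lmFit and eBayes, with Benjamini-Hochberg adjustment. The 3039 genes with 3 values have 2 residual degrees of freedom and a prior of 5.31, and the fit over 5043 genes with at least 2 values a prior of 6.36, with 1 residual degree of freedom for genes with 2 values. The fits were run on simulated data with 100 genes lowered at each size in each of 5 draws, and no gene was raised. Over 3039 genes with 3 values, 49% of genes changed 2-fold and 99.2% changed 4-fold were recovered, and 5.1% of calls were false. Over 5043 genes with at least 2 values, 43.6% and 99.2% were recovered and 8.1% of calls were false, a share above the threshold of 0.05. The simulated errors were normal and independent between genes, with the same change on every array. These rates therefore do not cover differences that many genes share on 1 array. Alternatives were centring, scaling, robust variance, array weights, all spots, a stricter threshold and leaving out each array. All 45 genes were to be described, with the highest and lowest passing genes of each other list (ranked by mean among genes with 3 values) and every regulator; not every such gene is given. The members and lists were chosen with earlier results of these data known. No promoter or protein sequences were used here.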

Additional observations from a re-analysis of the deposited data

How the results depend on the processing

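Each log ratio already pairs treated and control RNA on 1 array. The 3 arrays form a single group, so no further pairing was possible. Of the 14 genes with 3 values, centring, scaling, robust variance, all spots and the fit over genes with at least 2 values kept the call and direction of each, and array weights added RLP24. Leaving out 1 array gave 0 to 10 calls among the 14, and over all genes 0 to 366 lower and 0 to 373 higher (from 293 and 254). NOP15, not called, had means from -0.49 (without array 1, a change of sign) to 0.38 (without array 2). At an adjusted p below 0.01, 0 of the 14 and 0 of the 29 passed, with 13 lower and 23 higher genes of 3039 and 16 lower and 30 higher of 5043. In the fit over 5043 genes (294 lower, 272 higher), array weights gave 450 lower and 415 higher, and leaving out 1 array gave 0 to 366 lower and 0 to 376 higher. Of the 29 genes with 2 values, 7 were called. With all spots tested 3 were called (NOP7, RIX1 and NOP13), beside 268 lower and 249 higher of 5605 spots. Centring or array weights gave 10 (adding SSF1, IPI1 and MRT4). Over all 5043 genes, centring gave 328 lower and 316 higher. Scaling gave 9 of the 29, with 274 lower and 276 higher genes. Without array 1, 0 of the 29 were called. At an unadjusted p below 0.05 in limma, 16 were then lower, as were 533 of 5021 genes, with 471 higher. Without array 2 or 3 the 29 genes keep 1 value and no test. The median over the factors, -1.17, was -1.17 with centring, -1.38 over the 14 genes with 3 values, and -1.18 to -1.11 with 1 array left out. The planned promoter motif counts were not run, since no promoter sequences were used here. The cause of these changes was not tested.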
